A study of Mus musculus with 9 samples.

Results

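Gene expression in the intermediate spinal cord was set against that in the dorsal spinal cord of the same mice. The 6 arrays titled as intermediate or dorsal, of 9 in the series, were taken, and every probe set that carried a single gene symbol was read, which gave 18193 genes. Of these, 4810 never left the lowest value on the 6 arrays and 13383 could be tested. The mice were at postnatal day 6 and all carried the GAD65-GFP genotype, a reporter that labels neurons able to make GABA. Both pieces came from each of 3 animals (n = 3 per region), and the titles give the animal of each array. No sorting of cells is named in the labels, so the values are taken as those of whole tissue pieces, and no animals without the transgene enter the comparison. The labels do not say where a dorsal piece ended and an intermediate one began, which segments were taken, or the sex of the animals.

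The dorsal horn receives touch, itch, pain and temperature input from sensory neurons, and its superficial layers are dense in small excitatory neurons that carry neuropeptides. The intermediate zone holds deeper premotor interneurons, many of them inhibitory and using glycine as well as GABA, and it surrounds the central canal, which is lined by ciliated ependymal cells. The outer edge of the cord is covered by meninges and pierced by nerve roots, whose axons are wrapped by Schwann cells.

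Values are on a log2 scale as far as their range shows, and differences below are intermediate minus dorsal on that scale, with the standard error of the model after ±. Array medians ran from 3.66 to 3.752, the share of an array at the floor (its lowest possible value, 2.15, with a tolerance of 0.01) was 36.13% to 36.26%, and no 2 arrays were identical. Across probe sets, which are not independent replicates, r was 0.998 to 0.9993 within a region and 0.9919 to 0.9952 between the regions. Values at the floor have no order, so a difference from the floor is a bound. Markers of neurons (Rbfox3, Snap25), astrocytes (Aqp4, Aldh1l1), oligodendrocytes (Mog) and microglia (Csf1r) were above the floor on all 6 arrays. The cholinergic genes Chat and Slc18a3 and the motor neuron factor Mnx1 stayed at the floor throughout, as did the sensory ganglion genes Avil, Trpv1 and Scn10a and the haemoglobin gene Hba-a1. Prx and Hbb-b1 were not analysed here.

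Of the 13383 genes tested, 2400 (17.9%) differed between the regions at an adjusted p below 0.05, with 1264 higher (9.44%) and 1136 lower (8.49%) in the intermediate pieces. Most differences were small: the median called excess was 0.51 and the median called deficit was -0.51, against a median of 0 over all genes tested. At least 2-fold apart were 193 of the higher and 252 of the lower genes, and at least 4-fold apart 48 and 75. The greatest excess belonged to Fam216b, a gene of ciliated cells, and the greatest deficit to Tac2, the precursor of the tachykinin neurokinin B. Counts of list members below are to be set against the shares of all genes, 9.44% higher and 8.49% lower.

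All 2400 called genes had the same sign in all 3 animals, and for 2353 of them the intermediate values did not overlap the dorsal ones, as in 44.2% of all genes tested (17.9% called). The called sizes were alike between animals, with a median absolute difference of 0.508 in animal 1, 0.499 in animal 2 and 0.515 in animal 3. A paired test on 3 animals calls only genes whose differences are alike. The shared sign and the like sizes thus follow from the calls and are not separate support. A second probe set above the floor was present for 1376 called genes and pointed the same way for 1207 of them (87.7%). Among those at least 2-fold apart, it did so for 186 of 196 (94.9%). The p-values measure how the same-animal differences spread between these 3 animals. Higher genes made up 52.7% of the calls, but 66.3% when each array was centred on its median, and 464 called genes had identical values on some arrays. In bulk tissue, fewer cells of a type and less RNA per cell cannot be told apart.

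**Figure D1:**
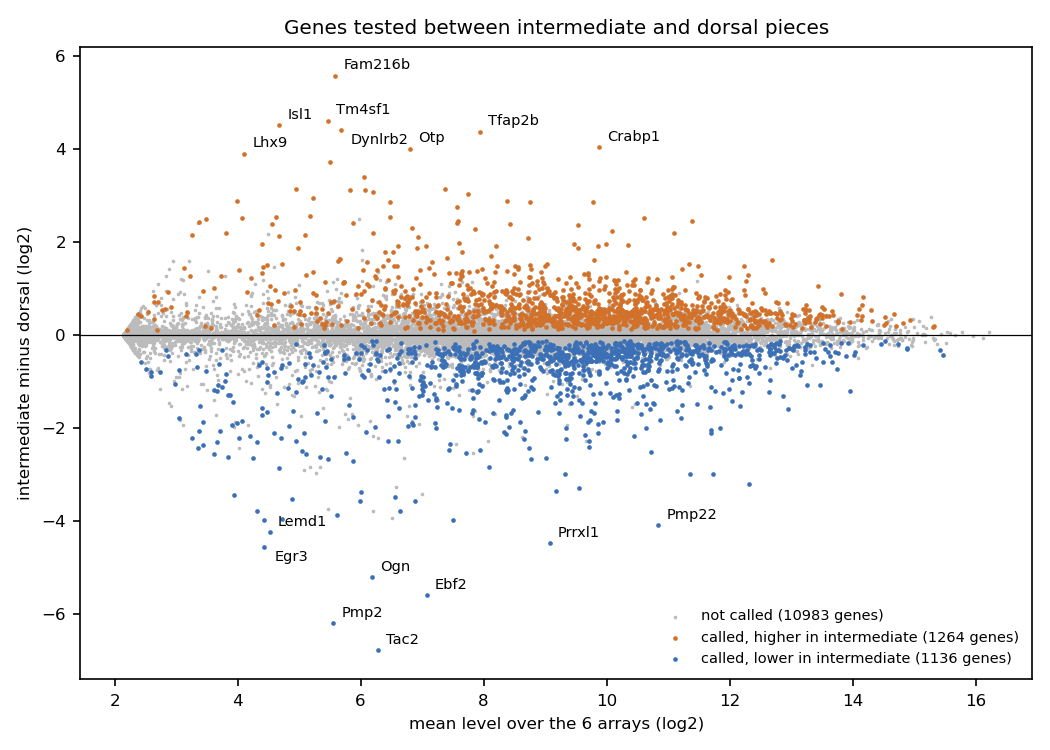
Each point is 1 of the 13383 genes tested, with its mean over the 6 arrays (log2) on the horizontal axis and the difference, intermediate minus dorsal (log2), on the vertical axis. Orange points are the 1264 genes called higher, blue points the 1136 called lower and grey points genes not called. The deficits of Tac2 (-6.79), Pmp2 (-6.20) and Ebf2 (-5.59) reach further from 0 than the excess of Fam216b (5.58).

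Among the 15 genes with the greatest excess, ciliary genes stood beside transcription factors and signalling proteins. Fam216b lay at 2.89, 2.96 and 2.53 in the dorsal pieces of animals 1 to 3 and at 8.30, 8.35 and 8.49 in their intermediate pieces, a 48.0-fold difference (5.58 ± 0.16, adjusted p = 0.0151). Isl1, a LIM-homeodomain factor of several neuron classes, stood at 2.33, 2.76 and 2.15 dorsally and 7.47, 6.67 and 6.67 in intermediate pieces. It was near or at the floor in every dorsal piece and high in every intermediate one, with an excess of 4.53 ± 0.30 (adjusted p = 0.0191). Otp, a homeodomain factor of neurosecretory and spinal interneurons, rose from 5.29, 4.58 and 4.51 to 8.94, 8.69 and 8.80 (4.02 ± 0.16, adjusted p = 0.0154). Foxp2, a forkhead factor of ventral interneurons among other cells, went from 3.53, 3.84 and 3.55 to 7.13, 7.18 and 7.80 (3.73 ± 0.23, adjusted p = 0.018). The dorsal and intermediate values of these genes lay far apart in all 3 animals, which follows from their choice by size.

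Whether the other genes of this group share a function was not tested. Tm4sf1, a membrane protein of the tetraspanin-like family, had dorsal values of 3.06, 3.06 and 3.35 and intermediate values of 7.67, 7.67 and 7.98 (4.62 ± 0.01, adjusted p = 0.0029). Its values were identical in animals 1 and 2 within each region. Irs4, an adaptor of insulin and IGF receptors, rose by 3.41 ± 0.36, and its highest dorsal value (5.08, animal 3) stayed below its lowest intermediate value (7.63, animal 2). Syt17, a synaptotagmin-like protein, rose by 3.16 ± 0.24, Bbox1, which makes carnitine, by 3.12 ± 0.29, Asb4, a substrate receptor of ubiquitin ligases, by 3.12 ± 0.07, and 1700007K13Rik by 3.07 ± 0.20. The adjusted p of these genes ran from 0.0146 for Asb4 to 0.0301 for Irs4.

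**Figure D2:**
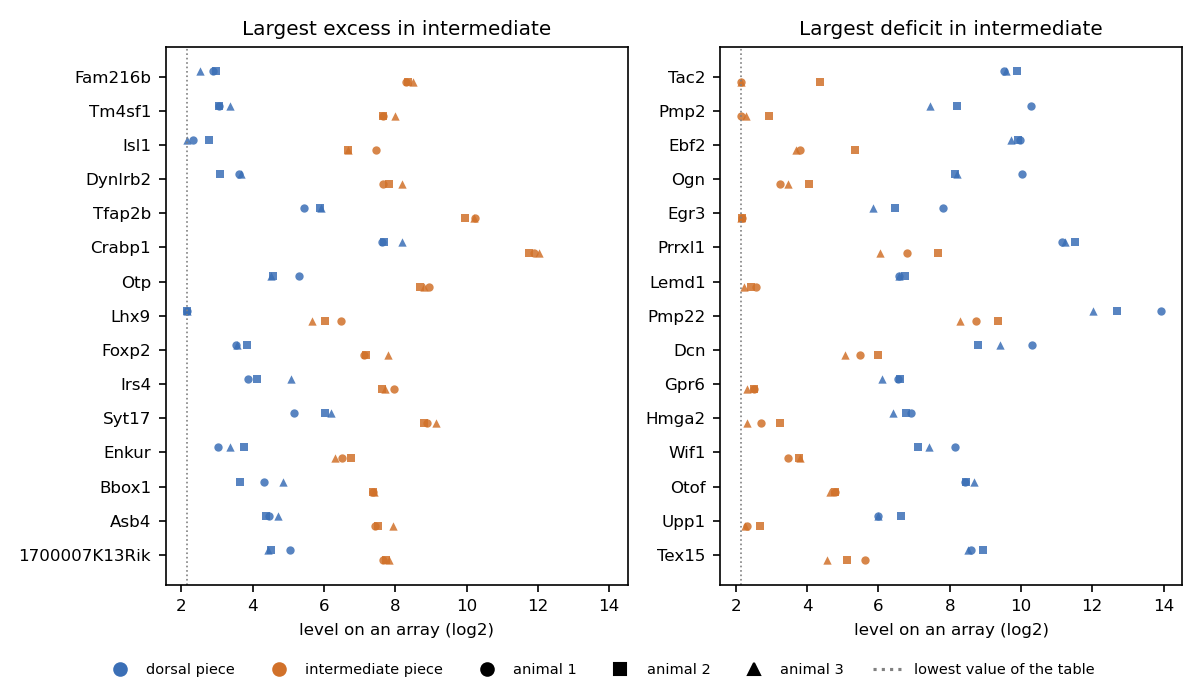
Levels (log2) on each of the 6 arrays for the 15 genes with the largest called excess (left) and the 15 with the largest called deficit (right) in intermediate pieces. Blue marks are dorsal and orange marks intermediate pieces, the marker shape gives the animal, and the dotted line is the lowest value of the table. No dorsal and intermediate values of these genes overlap, as in 44.2% of all genes tested. The dorsal pieces of Pmp2, Egr3, Ogn, Pmp22 and Dcn are spread more widely than those of Tac2 or Prrxl1.

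The largest deficits included the peptide gene Tac2, transcription factors of dorsal neurons, and the matrix and peripheral myelin genes described further on. Tac2 stood at 9.52, 9.90 and 9.58 in dorsal pieces and at 2.15, 4.35 and 2.15 in intermediate ones, a mean deficit of -6.79 ± 0.52 (adjusted p = 0.0216). The intermediate pieces of animals 1 and 3 were at the floor, so their own differences of -7.37 and -7.44 are bounds. Ebf2, a helix-loop-helix factor, lay at 9.97, 9.92 and 9.71 against 3.80, 5.34 and 3.69 (-5.59 ± 0.43, adjusted p = 0.0216). Prrxl1, the paired-homeodomain factor also called DRG11 that pain circuits need, lay at 11.16, 11.53 and 11.24 against 6.79, 7.66 and 6.05 (-4.48 ± 0.33, adjusted p = 0.0206). In each of these 3 genes the intermediate piece of animal 2 held the highest intermediate value.

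Further genes of this group were dim in every intermediate piece. Lemd1 had intermediate values of 2.56, 2.43 and 2.21 and fell by 4.24 on the log2 scale, and Gpr6, an orphan receptor, had 2.50, 2.51 and 2.31 and fell by 3.97. Hmga2, a chromatin protein of immature cells, had 2.71, 3.25 and 2.30 and fell by 3.95. Among the same 15 genes were Upp1, a uridine phosphorylase (-3.79), Otof, a calcium sensor of vesicle release (-3.79), and Tex15, known from meiosis (-3.58). Egr3, an immediate early factor, lay at 2.16, 2.16 and 2.15 in intermediate pieces and at 7.82, 6.47 and 5.86 in dorsal ones, highest in animal 1 and lowest in animal 3 as were the Schwann cell genes described further on. The adjusted p of these 7 genes ran from 0.0136 for Upp1 to 0.031 for Egr3.

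Part of the genes of ependymal cells and motile cilia rose in the intermediate pieces. Of 40 tested members of a list of such genes, 9 were higher (22.5%, background 9.44%), 0 were lower, and the median difference was 0.27. The higher members were Foxj1, the factor that switches on the motile cilium programme, the dynein light chain Dynlrb2, Enkur, Ccdc153, the adenylate kinase Ak7, Mlf1, Tmem212, Cfap126 and Fam216b. Ak7 (2.54), Mlf1 (1.91), Tmem212 (1.52) and Cfap126 (1.15) were named after their values were seen.

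Foxj1 stood at 3.99, 4.05 and 4.02 in dorsal pieces and at 5.86, 6.37 and 6.31 in intermediate ones (2.16 ± 0.12, adjusted p = 0.0173). Dynlrb2 went from 3.63, 3.09 and 3.67 to 7.65, 7.81 and 8.20, which was 21.5-fold (4.43 ± 0.18, adjusted p = 0.0154). Enkur went from 3.03, 3.75 and 3.36 to 6.50, 6.76 and 6.31 (3.14 ± 0.14, adjusted p = 0.0158). The summed linear level of all 49 listed genes on the array ran from 2811 to 2885 in dorsal and from 4127 to 4335 in intermediate pieces, without overlap. Rsph1, a radial spoke protein, rose in each animal but did not pass the test (0.95 ± 0.23, adjusted p = 0.102), and Rfx3, the list's brightest member and a factor of ciliary genes, had -0.27 ± 0.06 (adjusted p = 0.0979). Without the animal block 20 members were higher, and with arrays centred on their medians 19.

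RFX transcription factors act with Foxj1 in ciliated cells and bind the X-box, an imperfect inverted repeat whose arms hold the letters GTTGCC. Those 6 letters were searched on both strands in the RefSeq promoter windows of GRCm38.p6, 300 bases each, from 250 before to 50 after a start. They occurred in 4111 of all 32851 windows (12.5%). Of the called ependymal genes, 8 matched the promoter table, and 4 of their 10 windows held the letters, as did 10 of 28 windows (35.7%) of list members that were tested but not called. The stretches around the match upstream of the start are shown because these 4 promoters belong to genes that moved together, with the matched letters in capitals, 5′ to 3′ on the strand of the gene.
Dynlrb2, chr8:116504924-116505009, plus strand, match beginning 51 bases before the start: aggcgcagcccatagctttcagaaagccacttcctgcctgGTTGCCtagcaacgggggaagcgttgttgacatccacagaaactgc
Ccdc153, chr9:44240485-44240570, plus strand, match beginning 152 bases before the start: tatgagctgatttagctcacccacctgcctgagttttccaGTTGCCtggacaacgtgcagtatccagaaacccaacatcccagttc
Mlf1, chr3:67373952-67374037, plus strand, match beginning 105 bases before the start: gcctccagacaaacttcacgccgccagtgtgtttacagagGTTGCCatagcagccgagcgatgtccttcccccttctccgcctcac
Enkur, chr2:21205366-21205439, minus strand, match beginning 34 bases before the start: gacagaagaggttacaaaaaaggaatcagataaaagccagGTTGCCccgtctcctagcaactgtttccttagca
A match of letters is a description of these windows and not a binding site.

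Transcription factors of dorsal interneurons divided between the regions. On a list of factors of dorsal excitatory neurons, 7 of 26 tested members were higher in intermediate pieces and 9 lower, with a median of 0.03. The lower ones included Ebf2, Prrxl1, Lmx1b and Ebf1, and the higher ones Isl1, Otp and Lhx9. Lmx1b, a LIM-homeodomain factor of superficial excitatory neurons, lay at 7.63, 7.94 and 7.73 in dorsal and at 4.54, 4.39 and 3.70 in intermediate pieces (-3.56 ± 0.23, adjusted p = 0.0189). Ebf1, the brightest member of the list, lay at 14.06, 13.92 and 13.79 against 10.65, 11.38 and 10.12 (-3.21 ± 0.29, adjusted p = 0.0257). Tlx3, which specifies excitatory fate beside Lmx1b, was dim, with 2.56, 3.47 and 2.85 in dorsal pieces and the floor in all intermediate ones, and did not pass (adjusted p = 0.124). Lhx9, which marks a class of deep dorsal neurons, was at the floor in all dorsal pieces and at 6.47, 6.02 and 5.67 in intermediate ones.

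Factors of dorsal inhibitory neurons also moved both ways, 4 of 16 higher and 4 lower (median -0.36). Tfap2b, an AP-2 factor, went from 5.44, 5.89 and 5.91 to 10.23, 9.95 and 10.20 (4.38 ± 0.18, adjusted p = 0.0155). Its relative Tfap2a rose by 2.19 ± 0.30 (adjusted p = 0.0426, but 0.0547 without animal 2), and Nr4a2, a nuclear receptor that is also an immediate early gene, by 2.28 ± 0.31 (adjusted p = 0.0429, but 0.0701 without animal 2 and 0.0861 without animal 3). Gbx1 went the other way, from 6.63, 6.83 and 6.46 to 3.03, 3.74 and 2.58 (-3.52 ± 0.20, adjusted p = 0.0172). Without the animal block, 4 of these factors were higher and 9 lower. Fits without an animal here and below also held the ventral arrays of the remaining animals, which serve only to estimate the spread, and were chosen after seeing the data. Their counts match the fit of all 9 arrays and all animals, not the main fit. That 9-array fit called 2276 higher and 2040 lower genes.

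Among factors of ventral interneurons 4 of 20 rose (background 9.44%) and 1 fell (5.0%, background 8.49%), with a median of 0.30. Beside Foxp2, the orphan nuclear receptor Esrrg went from 6.78, 6.89 and 7.15 to 9.90, 9.71 and 9.88 (2.89 ± 0.10, adjusted p = 0.0152), and Onecut2 rose by 0.88 ± 0.05. Nr2f2, also called COUP-TFII, fell by 0.80. With arrays centred on their medians, 8 members were higher. Among 7 Zic and roof-plate factors, Msx1, a target of BMP signals, rose by 1.79 ± 0.17 and Zic2 by 0.63 ± 0.04 (adjusted p = 0.0173, but 0.0636 without animal 1). Gdf10, a BMP relative, fell by 0.58.

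Neuropeptide genes of the dorsal horn mostly fell. Of 25 tested members, 13 were lower in intermediate pieces (52.0%, background 8.49%) and 3 higher, with a median of -1.08. Cck, the cholecystokinin precursor, lay at 10.78, 11.02 and 10.64 in dorsal and at 7.93, 8.23 and 7.29 in intermediate pieces (-3.00 ± 0.15, adjusted p = 0.0165). Sst, the somatostatin precursor, lay at 11.81, 12.15 and 11.96 against 9.61, 9.69 and 9.07 (-2.51 ± 0.17, adjusted p = 0.0193). Their regions did not overlap, as in 44.2% of all genes tested. Further members named after their values were seen were Grp (-2.41), Pdyn (-2.28), Nmu (-2.22), Npy (-2.10), Adcyap1 (-1.86), Nts (-1.24), Pnoc (-1.22) and Trh (-1.18), and Tac1, the substance P precursor, fell by 0.76. The higher members were Cartpt, the CART precursor, with 6.35 in all 3 dorsal pieces and 8.55, 8.60 and 9.26 in intermediate ones, Ecel1 (1.39) and Vgf (0.39), the last 2 named after their values were seen. Scg2, a granin of dense-core vesicles and the brightest member, differed by -0.01 ± 0.09 (adjusted p = 0.986).

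Receptors for such peptides also fell more often than they rose, with 9 of 27 lower (33.3%) and 4 higher (14.8%), median -0.17. Sstr2, a somatostatin receptor, lay at 4.23, 4.68 and 4.30 against 2.19, 2.66 and 2.19 (-2.05 ± 0.03, adjusted p = 0.0136), and Nmbr, the neuromedin B receptor, fell by 1.94. Gpr83 fell by 1.62 (adjusted p = 0.0282, but 0.0503 without animal 2 and 0.0768 without animal 3). Npy2r, a neuropeptide Y receptor that is often presynaptic, rose from 3.67, 3.56 and 3.57 to 5.82, 5.63 and 5.77 (2.14 ± 0.04, adjusted p = 0.0136). The receptors Npy1r (-1.51) and Npy5r (-0.67), named after their values were seen, were lower while Npy2r was higher. Without animal 1, 5 receptors were higher and 5 lower.

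Genes of glycine and GABA transmission were mostly higher. Of 13 tested members, 8 rose (61.5%, background 9.44%) and 1 fell, with a median of 0.67. Without the animal block 9 were higher, but without a filter on low values only 3 of 14. With the second brightest probe set 0 of 6 were higher and 1 lower (median 0.38). Slc6a5, the neuronal glycine transporter GlyT2, went from 9.23, 9.43 and 9.45 to 11.31, 11.13 and 11.49 (1.94 ± 0.10, adjusted p = 0.0169), and Slc6a9, the glial transporter GlyT1, rose by 0.98 ± 0.04. The GABA-synthesising enzymes moved in opposite directions. Gad2, which encodes GAD65, went from 10.38, 10.43 and 10.49 to 11.71, 11.62 and 11.73 (1.26 ± 0.04, adjusted p = 0.0151). Gad1, which encodes GAD67, went from 13.96, 14.08 and 13.94 to 12.96, 13.05 and 12.80 (-1.06 ± 0.04, adjusted p = 0.0152). Neither gene's regions overlapped, as in 44.2% of all genes tested and in 2353 of the 2400 called.

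Among GABA receptor genes 2 of 10 were higher (background 9.44%) and 1 lower (background 8.49%), against 1 and 2 without animal 1, 3 higher without animal 2, and 1 and 1 without animal 3. The fit of all 9 arrays called 4 higher and 2 lower. Gabrb1, a subunit of the GABA-A receptor, rose by 0.52 ± 0.03, and Gabbr1, a GABA-B subunit and the brightest member, differed by 0.21 ± 0.06 (adjusted p = 0.137). Among glutamate receptors 6 of 19 were lower (31.6%) and 3 higher (15.8%), median -0.14, but 7 were lower and 7 higher with arrays centred on their medians, and 9 and 7 without the animal block. Grm5, a metabotropic receptor of dorsal horn pain circuits, lay at 13.51, 13.61 and 13.46 against 12.28, 12.29 and 12.07 (-1.31 ± 0.04, adjusted p = 0.0151). Gria2, the AMPA receptor subunit that limits calcium entry, lay at 14.69, 14.53 and 14.43 against 13.38, 13.51 and 13.18 (-1.19 ± 0.08, adjusted p = 0.0187), and Grin3a fell by 0.84. Grm8 rose by 1.06 (adjusted p = 0.035, but 0.0603 without animal 1 and 0.053 without animal 3). Slc17a6, the vesicular transporter VGLUT2 that marks excitatory neurons, differed by -0.02 ± 0.08 (adjusted p = 0.911), while the pan-neuronal Rbfox3 fell by 0.61 ± 0.05 (adjusted p = 0.0238).

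Calcium-binding proteins and protein kinase C isoforms fell or did not pass, with 8 of 19 lower, 0 higher and a median of -0.26. Calb2, the calretinin gene, lay at 11.47, 11.94 and 11.54 against 9.70, 9.76 and 9.47 (-2.01 ± 0.11, adjusted p = 0.0169). Calb1, the calbindin gene of superficial dorsal neurons among others, lay at 11.40, 11.63 and 11.43 against 10.14, 9.90 and 9.68 (-1.58 ± 0.13, adjusted p = 0.024). Hpcal4 fell by 1.51, and Necab1 also fell (-1.30, adjusted p = 0.0152, but 0.0567 without animal 1 and 0.0574 without animal 2). Vsnl1, the brightest member, had a positive difference of 0.28 ± 0.06 (adjusted p = 0.0861). Without animal 3, 5 members were lower.

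Voltage-gated channels changed in both directions. Among sodium and calcium channel genes 4 of 26 were higher (15.4%, background 9.44%) and 9 lower (34.6%, background 8.49%). Scn4b, a sodium channel subunit of fast-firing neurons, went from 3.98, 3.55 and 4.15 to 6.39, 6.46 and 6.54 (2.57 ± 0.15, adjusted p = 0.0172), and Scn8a (0.81) and Scn1a (0.88), pore subunits named after their values were seen, were higher too. Cacna1h, a T-type calcium channel of pain pathways, lay at 9.21, 9.51 and 9.36 against 7.43, 7.41 and 7.03 (-2.07 ± 0.14, adjusted p = 0.0189). Cacna1e fell by 1.24, and Cacng5 fell from 9.26, 9.46 and 9.26 to 8.14, 8.15 and 8.08 (adjusted p = 0.0154, but 0.105 without animal 3). Without animal 3, 3 members were higher and 4 lower.

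Of 40 potassium channel genes 9 were higher and 8 lower (median -0.02). Kcna5 lay at 7.98, 7.19 and 7.92 against 4.33, 4.69 and 3.90 (-3.38 ± 0.39, adjusted p = 0.0337). Kcnc2, of the Kv3 family, fell by 1.86. Kcnip2, a partner of Kv4 channels (-1.77), and Kcnt2, a sodium-activated channel (-1.09), fell too. Higher members, named after their values were seen, included Kcnc4 (0.93), Kcna6 (0.65) and the inward rectifiers Kcnj16 (0.93) and Kcnj10 (0.56). Without animal 3, 4 were higher and 5 lower. Kcnd2, the brightest member, differed by -0.02 ± 0.05 (adjusted p = 0.78).

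Genes of vesicle release included paralogs that moved apart. Syt2, the fast calcium sensor of hindbrain and spinal synapses, went from 8.27, 8.11 and 8.66 to 10.72, 10.53 and 10.88 (2.37 ± 0.06, adjusted p = 0.0151), and Vamp1 rose by 1.42 ± 0.09. Syt9 instead fell (adjusted p = 0.017), with differences from -1.49 to -1.35 without 1 animal, and had 7.54 in all intermediate pieces. Syt5 was at the floor in all intermediate pieces (adjusted p = 0.0347, but 0.0529 without animal 1). In all, 4 of 30 members were higher (13.3%, background 9.44%) and 7 lower (23.3%, background 8.49%), against 9 and 7 without animal 2. The fit of all 9 arrays called 9 higher and 10 lower. Snap25, the brightest member, had 0.21 ± 0.06 (adjusted p = 0.134).

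Receptors for monoamines, through which the brainstem acts on the cord, showed 3 of 11 higher (27.3%, background 9.44%) and 1 lower (9.09%, background 8.49%). Htr1b, a serotonin receptor, went from 7.19, 7.32 and 7.44 to 10.24, 10.03 and 10.29 (2.87 ± 0.08, adjusted p = 0.0151). Htr2c, another serotonin receptor, went from 10.56, 10.74 and 10.90 to 12.25, 12.09 and 12.34 (1.49 ± 0.09, adjusted p = 0.0177). Drd2, a dopamine receptor, fell from 5.01, 5.14 and 4.85 to 3.14, 3.14 and 3.16 (-1.85 ± 0.08, adjusted p = 0.0158). The regions did not overlap in any of the 3 genes, as in 44.2% of all genes tested.

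On the list of motor neuron and cholinergic genes, 7 of 20 tested members were higher (35.0%) and 0 lower, median 0.28, while the defining cholinergic genes were at the floor. The members that rose were Isl1, Sncg, the neurofilament genes Nefh, Nefm and Nefl, and, named after their values were seen, Chodl (0.99) and Chrna7 (0.71). Nefh, the heavy neurofilament of large neurons, went from 9.72, 9.97 and 10.31 to 12.23, 12.09 and 12.29 (2.20 ± 0.13, adjusted p = 0.0177). Nefm rose by 1.05 ± 0.05 and Nefl by 0.89 ± 0.09. Sncg rose by 1.49 ± 0.22 (adjusted p = 0.0462, but 0.0608 without animal 2 and 0.0641 without animal 3). The summed level of all 29 listed genes on the array ran from 20571 to 24635 in dorsal and from 42057 to 46411 in intermediate pieces. The sum is linear, so its brightest member, Nefl, weighs most, and 9 of the 29 stayed at the floor. On the list of sensory ganglion genes 3 of 11 tested members were higher (27.3%, background 9.44%) and 1, Tac1, was lower (9.09%, background 8.49%). The higher ones were Isl1, Nefh and the mechanosensitive channel gene Piezo2 (adjusted p = 0.033, but 0.0644 without animal 3).

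Hox genes, which are arranged in 4 clusters and set identity along the body axis, differed by cluster. Of 25 tested members, 7 were higher and 10 lower, with a median of 0. In the Hoxb cluster 5 of 6 were lower and 0 higher (median -1.16), and in the Hoxa cluster 5 of 8 were lower and 1 higher (median -0.37). The higher Hoxa gene was Hoxa11, named after its values were seen. It was near the floor, with means of 2.22 in dorsal and 2.63 in intermediate pieces. In the Hoxd cluster 4 of 5 were higher and 0 lower (median 0.54), and in the Hoxc cluster 2 of 6 were higher and 0 lower (median 0.56). Hoxd10 went from 9.47, 9.37 and 9.19 to 12.07, 11.89 and 11.63 (2.52 ± 0.04, adjusted p = 0.0136), and Hoxc10 from 8.87, 9.17 and 8.88 to 11.20, 11.14 and 11.28 (2.24 ± 0.11, adjusted p = 0.0165). Their paralog Hoxa10, named after its values were seen, was lower (-0.36 ± 0.03, adjusted p = 0.0206).

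Hoxb6 fell from 10.59, 10.72 and 10.60 to 8.88, 9.09 and 8.92 (-1.67 ± 0.03, adjusted p = 0.0136), and Hoxa7 from 7.33, 8.20 and 7.73 to 5.83, 5.83 and 5.71 (-1.96 ± 0.21, adjusted p = 0.0318, but 0.0562 without animal 3). Hoxb2 (-1.29) and Hoxb9 (-1.33), named after their values were seen, lie at opposite ends of the Hoxb genes measured here and were both lower. By paralog group, 1 of 15 members of groups 1 to 7 was higher and 7 lower. Of 10 members of groups 8 to 11, 6 were higher, the dim Hoxa11 among them, and 3 lower. Hoxc8, the brightest member, rose by 0.70 ± 0.07. Without animal 3, 4 Hox genes were higher and 5 lower. Cluster, paralog group and the position of the cut along the cord were not separated by this design, and their part in the pattern was not tested.

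**Figure D3:**
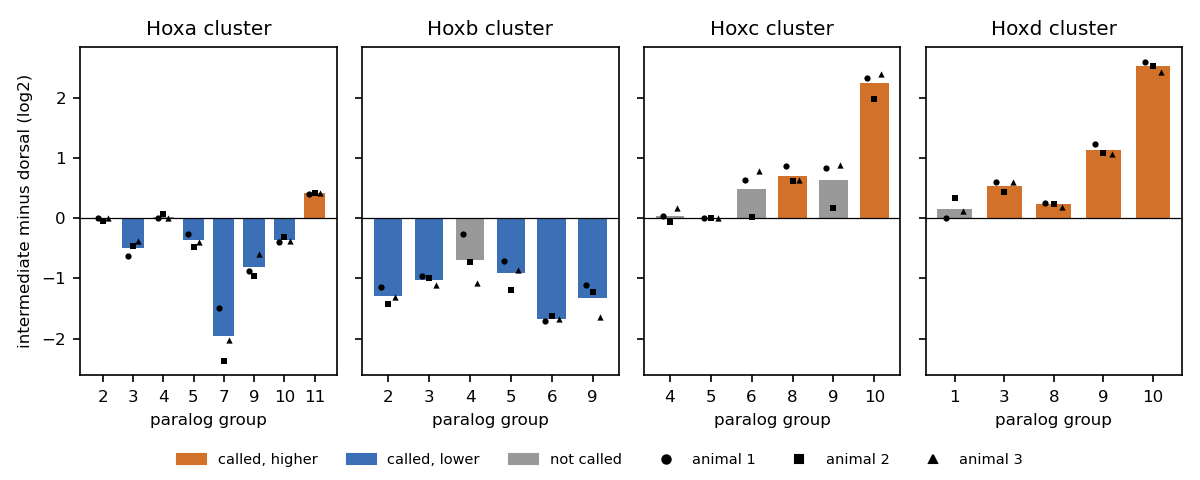
Difference, intermediate minus dorsal (log2), of the 25 tested Hox genes by cluster and paralog group, as bars, with a black mark for each of the 3 animals. Orange bars are genes called higher, blue bars called lower and grey bars not called. Called bars of the Hoxb cluster all point down and those of the Hoxc and Hoxd clusters all point up.

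Retinoic acid patterns the cord and its neurons. Of 16 genes of its pathway, 2 rose and 2 fell (12.5% each, near the backgrounds of 9.44% and 8.49%). Crabp1, which binds retinoic acid in the cell, went from 7.64, 7.69 and 8.20 to 11.88, 11.76 and 12.03, 16.6-fold higher (4.05 ± 0.10, adjusted p = 0.0151). Rarb, a retinoic acid receptor and itself a known target of the pathway, went from 5.97, 5.93 and 5.67 to 7.07, 7.17 and 6.89 (1.18 ± 0.04, adjusted p = 0.0152). Aldh1a2, the enzyme that makes retinoic acid, in meninges among other places, fell by 0.76 (adjusted p = 0.0354, but 0.0643 to 0.0684 without any 1 animal). Dhrs3, which turns retinal back into retinol, fell by 0.88 (adjusted p = 0.0151, but 0.0501 without animal 3). Receptors of the pathway bind repeated motifs, and the letters GTTCA repeated after 6 further bases, on either strand, occur in 25 of the 32851 promoter windows (0.0761%). The window of Rarb holds them, and that of Crabp1 does not. Only this exact pattern was searched, so neither the match nor its lack is a test of either gene. The Rarb stretch, on the minus strand at chr14:16575477-16575568 of GRCm38.p6 (RefSeq), is shown with the repeat in capitals, which begins 52 bases before the start.
Rarb: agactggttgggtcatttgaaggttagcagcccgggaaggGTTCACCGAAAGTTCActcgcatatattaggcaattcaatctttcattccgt

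Adhesion molecules were more often higher. Of 27 cadherins and protocadherins, 10 rose and 3 fell (median 0.27). Cdh7 rose from 7.51, 7.51 and 8.01 to 9.79, 9.80 and 9.73, while its other probe sets gave 0.96 and, for a dim one, -0.06, neither past the test over all probe sets. Cdh9 rose by 1.92 ± 0.04 and Pcdh11x by 1.48 ± 0.07. Cdh3, classical P-cadherin, fell from 4.62, 5.07 and 5.03 to 2.34 in all intermediate pieces (-2.56 ± 0.12, adjusted p = 0.0164). Of 23 contactins, neurexins and their partners, 7 rose and 2 fell. Cbln4, a secreted synaptic organiser, went from 8.21, 8.09 and 8.75 to 11.14, 11.09 and 11.38 (2.86 ± 0.10, adjusted p = 0.0152), whereas its relative Cbln1 fell from 10.46, 10.75 and 10.43 to 9.13, 9.13 and 8.98 (-1.46 ± 0.07, adjusted p = 0.0164). The fall of Chl1 (-0.36) was not shared by its second probe set (0.05). Without animal 1, 3 of this list were higher and 3 lower, and without animal 3, 4 and 2.

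Axon guidance genes were higher in 12 of 51 cases (23.5%) and lower in 5 (9.8%), median 0. Sema3a, a secreted repellent, went from 6.02, 6.35 and 6.71 to 8.70, 8.63 and 8.96 (2.41 ± 0.12, adjusted p = 0.0164). Epha4, a receptor that keeps axons from crossing the midline of the cord, went from 9.02, 8.66 and 9.04 to 10.81, 10.83 and 10.82 (1.91 ± 0.11, adjusted p = 0.0172). Plxna2, a semaphorin receptor, fell by 1.47 and Ntng1, a netrin-like membrane protein, rose by 1.30 ± 0.09. Of the semaphorin receptors named after their values were seen, Nrp1 (-1.21) was lower and Nrp2 (1.08) higher.

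Signals of the Wnt, BMP, Hedgehog and Notch pathways were higher in 7 (16.7%) and lower in 6 (14.3%) of 42 cases, against 4 and 5 without animal 3 and 12 and 5 with arrays centred on their medians. Wif1, a secreted Wnt inhibitor, fell from 8.14, 7.10 and 7.43 to 3.47, 3.76 and 3.80 (-3.88 ± 0.34, adjusted p = 0.025). Wnt4 (-1.56) and Fzd3, a Wnt receptor (-1.08), fell. Shh, the ligand made by the floor plate, was dim, at 2.15, 2.49 and 2.60 in dorsal and 3.85 in all intermediate pieces (1.44 ± 0.12, adjusted p = 0.0231), and Ptch1, its receptor, rose by 0.32 (adjusted p = 0.0362, but 0.0649 without animal 2 and 0.057 without animal 3). On the radial glia and floor plate list 5 of 13 rose and 1 fell, and those that rose included Ntn1, the netrin that guides commissural axons, from 8.41, 8.34 and 8.46 to 9.51, 9.58 and 9.51 (1.14 ± 0.05, adjusted p = 0.0158). Among perineuronal matrix genes 4 of 12 were higher and 1 lower. Hapln1, a link protein of these nets, went from 7.12, 7.23 and 7.34 to 9.49, 9.53 and 9.82 (2.39 ± 0.05, adjusted p = 0.0139), and Tnc, tenascin C, fell by 1.04. Immediate early genes were split, with Nr4a3 higher by 2.88 ± 0.11 and Egr1 lower by -2.09 ± 0.31 (adjusted p = 0.0488, but 0.0641 without animal 1), and 4 of 22 higher and 6 lower in all. Without animal 3, 1 immediate early gene was higher and 4 were lower.

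**Figure D4:**
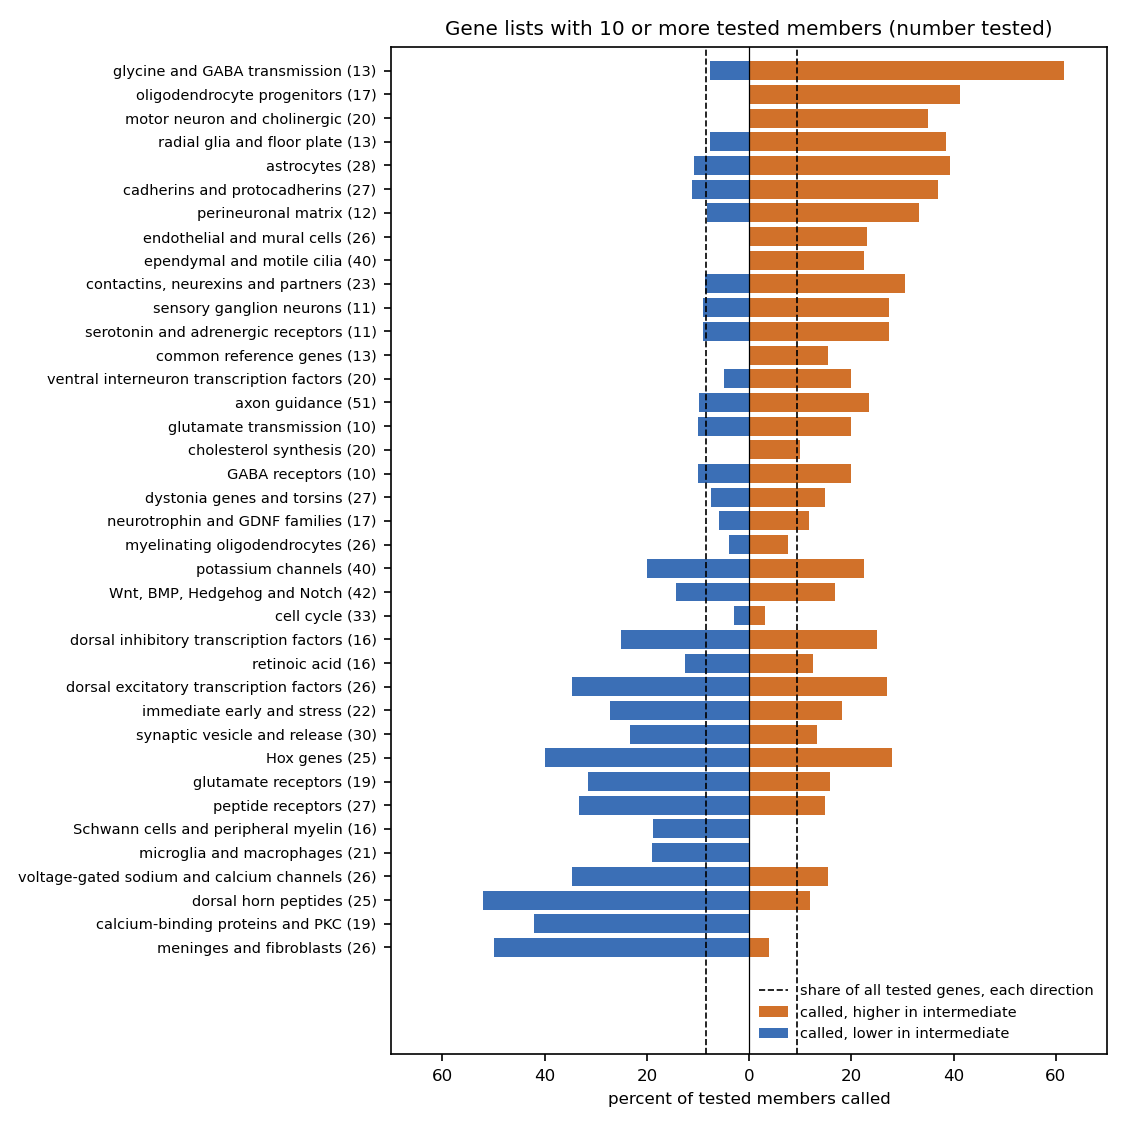
Percent of the tested members of each gene list that were called higher (orange, to the right) or lower (blue, to the left) in intermediate pieces, for lists with 10 or more tested members, whose number stands in parentheses. Dashed lines mark the shares of all 13383 genes, 9.44% higher and 8.49% lower. Glycine and GABA transmission reaches 61.5% higher, and dorsal horn peptides (52.0%) and meninges (13 of 26) reach the highest shares lower.

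Astrocyte genes were higher in 11 of 28 cases (39.3%) and lower in 3 (10.7%), with a median of 0.34. Slc7a10, an amino acid transporter of astrocytes, went from 8.79, 9.20 and 9.12 to 10.36, 10.29 and 10.47 (1.34 ± 0.12, adjusted p = 0.0246), and the glutamate transporter Slc1a3 rose by 0.99 ± 0.08. Gfap, the filament protein of fibrous astrocytes, fell from 11.12, 10.78 and 11.02 to 9.02, 9.42 and 9.59 (-1.63 ± 0.20, adjusted p = 0.0364), and Id3 (-1.25) and Hopx (-1.15) also fell. Aqp4 (-0.04, adjusted p = 0.505) and Aldh1l1 (0.07, adjusted p = 0.291) did not pass the test.

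Oligodendrocyte progenitor genes were higher in 7 of 17 cases and lower in 0, by small amounts (median 0.21), with 3 higher without animal 1. Olig1 rose by 0.48 ± 0.04, Cspg4, the NG2 proteoglycan, by 0.42 ± 0.02 and Pdgfra, the receptor that marks these cells, by 0.33 ± 0.03. Genes of myelinating oligodendrocytes were higher in 2 and lower in 1 of 26 cases, with Mbp at -0.03 ± 0.03 and Mog at 0.27 ± 0.22, neither past the test (adjusted p = 0.578 and 0.491). The called Car2 and Myrf overlapped between the regions, and without animal 1 or 2 neither was called (adjusted p from 0.11 to 0.492). Endothelial and mural genes were higher in 6 of 26 cases and lower in 0. Notch3, a receptor of mural cells, rose by 0.62 ± 0.04, whereas Cldn5, a tight junction protein of brain endothelium, differed by 0.08 (adjusted p = 0.507). Without animal 2, 4 members were higher and 3 lower.

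Part of the genes of meninges and fibroblasts fell: 13 of 26 tested members were lower and 1 higher, median -1.48, and the other 5 listed genes were at the floor throughout. Ogn, a small proteoglycan, lay at 10.03, 8.16 and 8.20 against 3.24, 4.04 and 3.47 (-5.22 ± 0.69, adjusted p = 0.0405). Dcn, decorin, lay at 10.30, 8.79 and 9.41 against 5.49, 5.99 and 5.06 (-3.99 ± 0.52, adjusted p = 0.0396). The collagen gene Col3a1 fell by 2.99 (adjusted p = 0.0445), and Col1a1, at 9.57, 8.01 and 8.56 against 5.29, 5.97 and 4.64, did not pass (adjusted p = 0.0605). The chemokine Cxcl12 fell by 2.47, but its second probe set was higher by 0.71 (adjusted p = 0.0265 over all probe sets), and without animal 1 the call of the brightest was lost (0.0514). The 1 higher member was Pdgfra, also a progenitor gene. With the second brightest probe set, limma called 0 of 17 members lower, with 3 lower at an unadjusted p under 0.05, and 1 higher (median -0.09). With the mean of all probe sets 7 of 26 were lower (median -0.87), and without a filter on low values 0 were, with 16 lower at an unadjusted p under 0.05.

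The summed level of all 31 listed meningeal genes ran from 18394 to 34711 in dorsal and from 8332 to 10300 in intermediate pieces, and their mean log2 level in dorsal pieces was 7.21, 6.50 and 7.01 in animals 1 to 3. The dorsal piece of animal 2 was thus the lowest, and that of animal 1 the highest. Without animal 1, 5 members were lower, without animal 2, 16, and without animal 3, 2. The fit of all 9 arrays called 16 lower. Without animal 3 the calls of Ogn (adjusted p = 0.0599), Dcn (0.07) and Col3a1 (0.0756) were lost.

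Schwann cell genes were lower in 3 of 16 cases (18.8%, background 8.49%) and higher in 0, median -0.75. The lower members were the peripheral myelin genes Pmp2, Pmp22 and Drp2. Without animal 3, 1 was lower, and the adjusted p of Drp2 was 0.0872. Pmp2 lay at 10.29, 8.22 and 7.45 in dorsal pieces and at 2.15, 2.94 and 2.28 in intermediate ones (-6.20 ± 0.82, adjusted p = 0.041). Pmp22, also used by fibroblasts, lay at 13.93, 12.69 and 12.03 against 8.73, 9.37 and 8.30 (-4.09 ± 0.48, adjusted p = 0.0348, but 0.0508 without animal 3). The mean log2 level of the 17 listed genes was 8.17, 7.23 and 7.01 in the dorsal pieces of animals 1 to 3 and from 6.03 to 6.14 in the intermediate ones, with the dorsal piece of animal 1 the highest. Their summed level ran from 75805 to 90544 in dorsal and from 67925 to 72076 in intermediate pieces. The brightest member of this list was Mbp, which is also an oligodendrocyte gene and did not pass the test. A linear sum weighs the brightest genes most, so this sum is not a level of Schwann cells alone. Whether roots or meninges stayed on the pieces, and any part of theirs in other genes that fell, was not tested.

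Microglia and macrophage genes had no positive difference: 18 of 21 lay below 0 and the other 3 at 0, and 4 passed the test (median -0.50). Csf1r, the receptor these cells depend on, lay at 9.70, 9.64 and 9.83 against 9.02, 9.19 and 9.26 (-0.57 ± 0.06, adjusted p = 0.0289), and C1qa, a complement gene, fell by 0.69 (adjusted p = 0.028). Without 1 animal these calls were lost, for Csf1r without animal 1 (0.0863) or 3 (0.0503) and for C1qa without any of them (0.0533 to 0.0831). F13a1, known from macrophages of the meninges among others, fell by 2.67, and of its dorsal values that of animal 2 (6.02) was again the lowest (adjusted p = 0.0356, but 0.13 without animal 1 and 0.119 without animal 3). P2ry12 (adjusted p = 0.141) and Cx3cr1 (adjusted p = 0.0792), purine and chemokine receptors of microglia, did not pass. The summed level of the 26 listed genes ran from 5928 to 7366 in dorsal and from 4206 to 4839 in intermediate pieces. Without animal 1 or animal 3, limma called 0 members, with 11 lower at an unadjusted p under 0.05 in each of these fits and 12 with all animals on the 6 arrays. Without animal 2 it called 10. The matching fit of all 9 arrays called 14 of 21 lower.

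**Figure D5:**
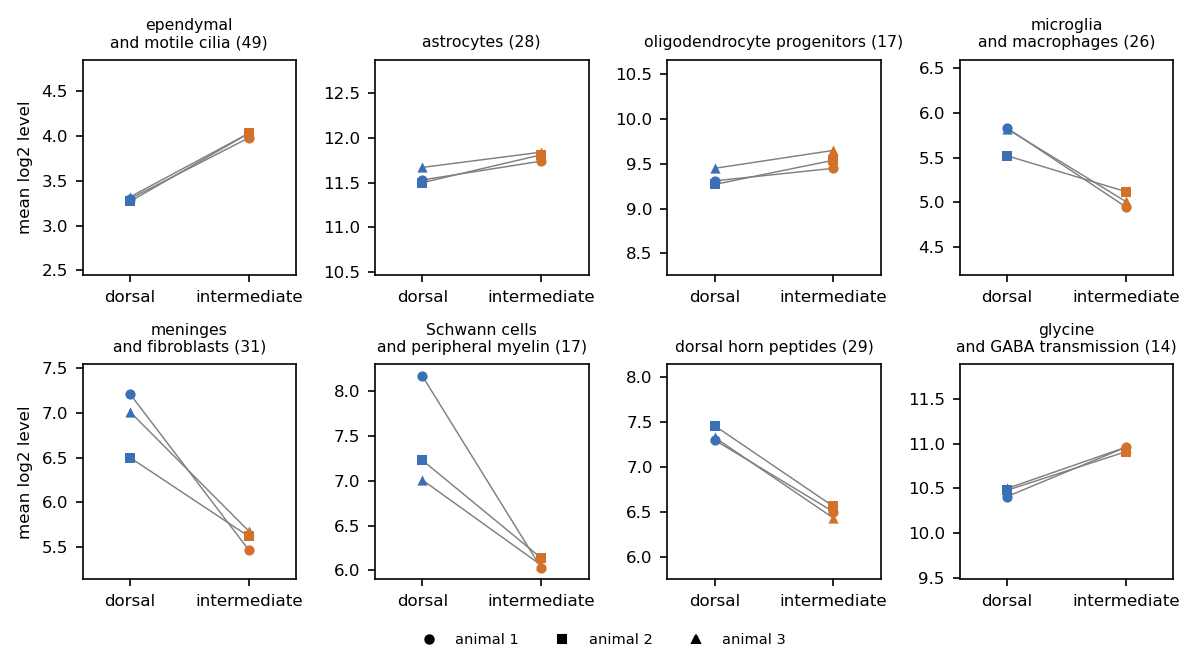
Mean log2 level of all genes of 8 lists that are on the array (number in parentheses) in the dorsal (blue) and intermediate (orange) piece of each animal, with lines joining the pieces of 1 animal and vertical axes of equal span. Ependymal genes rise alike in the 3 animals (dorsal 3.27 to 3.32, intermediate 3.98 to 4.03). Meningeal and Schwann cell genes differ between the dorsal pieces, whereas their intermediate levels lie close together.

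Some genes were at the floor throughout 1 region, so that the fold is only a bound. At the floor in all dorsal pieces were 209 tested genes, of which 20 were above it in all intermediate pieces and 4 were called. Lhx9 was at least 15-fold higher in intermediate pieces, and Car7, a neuronal carbonic anhydrase, at least 5.43-fold (4.32, 4.32 and 5.13, adjusted p = 0.0267). Lhx2, a LIM-homeodomain relative of Lhx9, reached 6.02 and 5.40 in animals 1 and 2 but 2.26 in animal 3, and did not pass (adjusted p = 0.221). At the floor in all intermediate pieces were 161 genes, of which 18 were above it in all dorsal pieces and 5 were called. Saa3, an acute-phase protein, was at least 5.40-fold lower, Mageb16 at least 4.65-fold lower and Syt5 at least 3.44-fold lower.

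Cell cycle, cholesterol, reference and dystonia genes were also counted, against backgrounds of 9.44% higher and 8.49% lower. Of 33 cell cycle genes, 1 was higher (Ccne1, 0.49) and 1 lower (Mcm7, -0.52), and of 20 genes of cholesterol synthesis 2 were higher (Mvd by 0.61, not called without animal 3, and Cyp51 by 0.29, not called without any 1 animal), against 5 without animal 1 and 6 with arrays centred on their medians. Without animal 1, 4 cell cycle genes were higher. The fit of all 9 arrays called 6 cholesterol and 3 cell cycle genes higher. Of 13 common reference genes 2 were higher, namely Pgk1 (0.48 ± 0.04) and Sdha (0.43 ± 0.04), and Eef1a1, the brightest, differed by -0.15 ± 0.04 (adjusted p = 0.117). Of 27 tested dystonia genes and torsins, the former being the subject of the series, 4 were higher and 2 lower, led by Klhl14 with 6.05, 6.29 and 6.34 in dorsal and 9.28, 9.07 and 9.44 in intermediate pieces (3.04 ± 0.11, adjusted p = 0.0152). With arrays centred on their medians, 8 of these 27 were higher and 3 lower, and without animal 3, 3 were higher.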

How the data were processed

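The authors' deposited table gives 1 value per probe set and array, taken as log2 expression because the values run from 2.14597 to 16.2699. The scale, the summary of probes, the normalization and the origin of the floor are not given in the sources used here. Of 45037 probe sets, 34945 carried 1 gene symbol in the platform annotation, 932 several and 9160 none. Entrez numbers linked 34741 of the single-symbol sets to present symbols, with 0 changes. The single-symbol probe set with the highest mean over the 6 arrays stood for a gene, which was tested if that set lay more than 0.01 above the lowest value on any of them. Arrays carry no depth, so their number limits the precision.

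Intermediate minus dorsal was fitted with limma 3.58.1 in R 4.3.3 (lmFit, eBayes) with the animal as a fixed block, with 2 residual and 0.783 prior degrees of freedom, two-sided and Benjamini-Hochberg adjusted over 13383 genes. The fit was tested on simulated data. Pairing follows from the animal numbers in the titles. After region means were subtracted, both arrays of an animal correlated at 0.057, -0.072 and 0.262 over 12884 genes. Dorsal and intermediate arrays of different animals correlated at -0.193 to 0.171, so the same-animal values were not higher throughout. Sequences came from RefSeq (GRCm38.p6).

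The comparison and the gene lists were chosen with earlier results of these data known. Named are the 15 largest called differences each way with the same sign in all animals, the 4 largest called members and the brightest member of a list, cell type markers, and the 5 brightest genes at the floor throughout 1 region. Other genes are marked as named after their values were seen, and the higher or lower called members of small lists are listed in full. Alternatives covered the block, the arrays in the fit, animals, filters, ties, probe sets, scaling and moderation. The ventral arrays were left out of the comparison. Python 3.11.15, pandas 2.3.3 and matplotlib 3.10.9 made tables and figures.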

Additional observations from a re-analysis of the deposited data

How the results depend on the processing

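The counts of 1264 higher and 1136 lower genes moved with the model. Without the animal block 1974 and 1739 genes were called, 2250 of the 2400 among them, and with all 9 arrays 2276 and 2040. Without a filter on low values 393 and 344 were called, with the second brightest probe set 252 and 262 of fewer genes tested, and at least 2-fold apart were 193 and 252. Centring on array medians gave 2276 higher, and centring on probe sets with a mean of at least 6 gave 2117. With 1 animal left out of the 6 arrays, limma called from 0 to 0 genes, with from 1571 to 2513 higher and from 1549 to 1854 lower at an unadjusted p under 0.05. Leaving out 1 animal with the ventral arrays in the fit, chosen after seeing the data, gave 855 to 1577 higher and 785 to 1099 lower genes, and 1378 to 1737 of the 2400 calls were still made. No called gene changed sign except with other probe sets (127 of 1376 with the second brightest and 16 of 2400 with the mean of all). The block, the ventral arrays, the filters and the moderation leave a gene's difference as it is. Leaving out 1 animal cannot reverse a gene with the same sign in all animals. Only other scalings and other probe sets could therefore have reversed a called gene. Among named genes the second brightest probe set reversed Chl1 (0.051) and Cxcl12 (0.712). The calls of 26, 22 and 30 named genes were lost without animals 1, 2 and 3. Apart from fewer genes or arrays, the causes were not tested. Probe sets near the floor limit what can be seen of dim genes.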

Other observations

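Probe sets without a single gene symbol were tested in a fit over all 29703 probe sets above the floor on an array. Of 5366 such probe sets, 115 were higher and 323 lower in intermediate pieces, so that 8.16% were called against 10.7% of all probe sets (3190). Their called differences reached from -5.02 to 3.36.

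At least 2-fold apart were 228 higher genes (193 called) and 338 lower genes (252 called). The regions did not overlap in 44.2% of all genes tested. Of genes at least 2-fold apart whose regions did not overlap, 116 did not pass the test. Mrc1 (-2.96), Pf4 (-2.84) and Lyve1 (-2.42), chosen after their values were seen and known from macrophages at the border of the nervous system, were among those that did not pass (adjusted p from 0.0567 for Mrc1 to 0.0768 for Pf4), and in each the dorsal value of animal 2 was the lowest.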
